A study of Mus musculus with 2 samples.

Results

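The interferon-inducible GTPases are large GTP-binding proteins that vertebrate cells make in quantity after exposure to interferons. The 10 genes described here were taken by name from the 33696 genes of the count tables. They comprise 6 guanylate-binding proteins (Gbp2, Gbp3, Gbp4, Gbp5, Gbp6 and Gbp7) and 4 immunity-related GTPases (Igtp, Irgm1, Irgm2 and Iigp1). Each was listed once, under its own Ensembl identifier.

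Both families act inside the cell on membranes. Guanylate-binding proteins assemble on the vacuoles of intracellular pathogens and on bacterial surfaces, and they feed into inflammasome activation and pyroptosis. Among the immunity-related GTPases, Iigp1 is an effector that loads onto vacuole membranes, whereas Igtp, Irgm1 and Irgm2 sit on host membranes and hold the effectors in check, and the ATG8 conjugation machinery helps direct members of both families to their targets. Interferon gamma acts through its receptor at GAS elements, type I interferon acts at ISRE elements, and both routes induce these genes. Endothelial cells carry both receptors and are well known to make guanylate-binding proteins in inflamed vessels.

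The samples were mammary tumors of 2 models. PyMT-M, labelled High-MAC for its macrophage-rich tumors, and PyMT-N, labelled Low-MAC, are MMTV-PyMT sublines, meaning tumor lines from mice whose polyoma middle T oncogene is driven by the mammary tumor virus promoter. Cells of either line were placed in the mammary fat pad of female C57BL/6 mice of 6 to 8 weeks, with no further treatment or allele named. Each of the 2 libraries pooled cells from 3 tumors that had been depleted of CD45 and Ter119 cells, enriched and sorted for CD31 and CD144, and was made with 10x Genomics 3′ chemistry. A condition therefore had 1 library and no replicate, no difference was tested, and the intervals given are 95% intervals for counting error only.

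PyMT-M held 7821 barcodes and PyMT-N 6974, of which 6719 and 5607 had at least 200 detected genes and at most 10% mitochondrial UMIs (unique molecules). Kept cells fell into 5 classes by marker UMIs. Blood endothelial cells (at least 5 UMIs of Pecam1, Flt1, Emcn and Kdr together, at most 1 of Krt8, Krt18 and Rhox5, and none of Prox1) numbered 588 in PyMT-M and 1065 in PyMT-N. Lymphatic cells (at least 3 UMIs of Prox1, Mmrn1 and Reln) numbered 20 and 207. Tumor-gated cells (at least 3 UMIs of Krt8, Krt18 and Rhox5, none of Pecam1 and Flt1) were most of both libraries, at 4902 and 3306, despite the endothelial sort. Fibroblasts (Col3a1 at 3000 CPM or more) numbered 58 and 63, and Ptprc+ cells (at least 1 UMI) 488 and 357. A further 724 and 699 kept cells met no gate, and 61 and 90 met more than 1. The libraries shared 20 barcodes, 12 of them kept in both.

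The gates were checked against other markers. All 8 further endothelial markers, among them Cldn5, Esam, Tie1 and Cdh5, were present in blood endothelial cells, at 5513 CPM in sum in PyMT-M and 5475 CPM in PyMT-N. The tumor gate was not borne out by epithelial markers: Krt7, Krt19, Epcam, Cldn7 and Esrp1 together reached 3.54 CPM in PyMT-M, nearly all of it Epcam, and 1.31 CPM in PyMT-N tumor-gated cells, and in PyMT-M Krt18 stood at 0.0662 CPM against 1003 CPM in PyMT-N. The gate rested on Rhox5 (669 CPM) and Krt8 (268 CPM) in PyMT-M and on Krt18 and Krt8 (807.5 CPM) in PyMT-N, so these cells are called tumor-gated and not epithelial. Blood endothelial cells were shallower in PyMT-M, with a median of 5206.5 UMIs against 12696, so shares of cells were also compared with each cell thinned to 2000 UMIs.

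The stretches before the annotated start sites are shown first, because interferon is known to act on these genes through short elements there. RefSeq promoters (build GRCm38.p6, 250 bases before to 50 after the start) were analysed for 7 of the 10 members, Gbp2, Gbp3, Gbp5, Gbp7, Igtp, Irgm1 and Irgm2. Those of Gbp4, Gbp6 and Iigp1 were not analysed here. Both strands were searched for GAS, spelled TTCNNNGAA, and for ISRE, spelled GAAANNGAAA or, on the other strand, TTTCNNTTTC. No GAS match overlapped an ISRE match. The guanylate-binding proteins are printed up to the base before the start site, 5′ to 3′, with matches in capitals.
Gbp2 (chr3:142620543-142620662, + strand): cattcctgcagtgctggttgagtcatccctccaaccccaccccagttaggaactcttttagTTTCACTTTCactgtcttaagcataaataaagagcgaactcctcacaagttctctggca
Gbp3 (chr3:142559924-142560043, + strand): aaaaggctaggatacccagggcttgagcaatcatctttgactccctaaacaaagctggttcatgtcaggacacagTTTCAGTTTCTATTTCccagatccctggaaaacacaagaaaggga
Gbp7 (chr3:142530216-142530335, + strand): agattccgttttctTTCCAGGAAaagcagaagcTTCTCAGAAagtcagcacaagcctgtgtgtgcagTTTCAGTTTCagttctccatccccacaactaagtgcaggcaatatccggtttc
Gbp5 (chr3:142496684-142496933, + strand): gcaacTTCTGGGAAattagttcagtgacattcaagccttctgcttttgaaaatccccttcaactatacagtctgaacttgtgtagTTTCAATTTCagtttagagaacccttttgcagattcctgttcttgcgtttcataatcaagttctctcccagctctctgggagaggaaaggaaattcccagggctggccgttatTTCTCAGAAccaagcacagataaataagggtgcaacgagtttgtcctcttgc

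All 7 members had an ISRE match and 4 of the 7, Gbp5, Gbp7, Igtp and Irgm2, also had a GAS match. Of all 32851 promoters of the same length, 3.44% held an ISRE match, 8.30% a GAS match and 0.454% both. The 5 ISRE matches of the 4 guanylate-binding proteins all read TTTC first along the gene. A second annotated start of Gbp3 had neither motif within its window. The immunity-related GTPases are printed the same way, to show that their ISRE matches lie in the other orientation.
Igtp (chr11:58199436-58199555, + strand): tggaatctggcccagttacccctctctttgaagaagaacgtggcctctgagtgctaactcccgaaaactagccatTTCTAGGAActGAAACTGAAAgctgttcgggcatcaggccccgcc
Irgm2 (chr11:58214857-58214976, + strand): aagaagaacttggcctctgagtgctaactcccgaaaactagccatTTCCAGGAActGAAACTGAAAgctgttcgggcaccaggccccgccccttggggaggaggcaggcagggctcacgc
Irgm1 (chr11:48871421-48871540, - strand): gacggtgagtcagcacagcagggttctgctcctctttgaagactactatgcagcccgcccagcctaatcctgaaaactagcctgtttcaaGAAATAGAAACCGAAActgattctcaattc

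In Igtp, Irgm2 and Irgm1 the 4 ISRE matches read GAAA first. Igtp and Irgm2, which are neighbours, had the same arrangement of a GAS match, 2 bases, and an ISRE match, the ISRE beginning 34 and 64 bases before the start. The same arrangement stood before Tgtp1, Tgtp2 and Gm12185, 3 further genes of the immunity-related group, while Gm12250, beside Igtp, had its 2 ISRE matches with TTTC first. The promoters of Igtp and Irgm2 were equal at 68.1% of 270 aligned bases, and no other pair of members passed 35.3%. A match describes letters in a window and says nothing of binding in these cells.

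**Figure D1:**
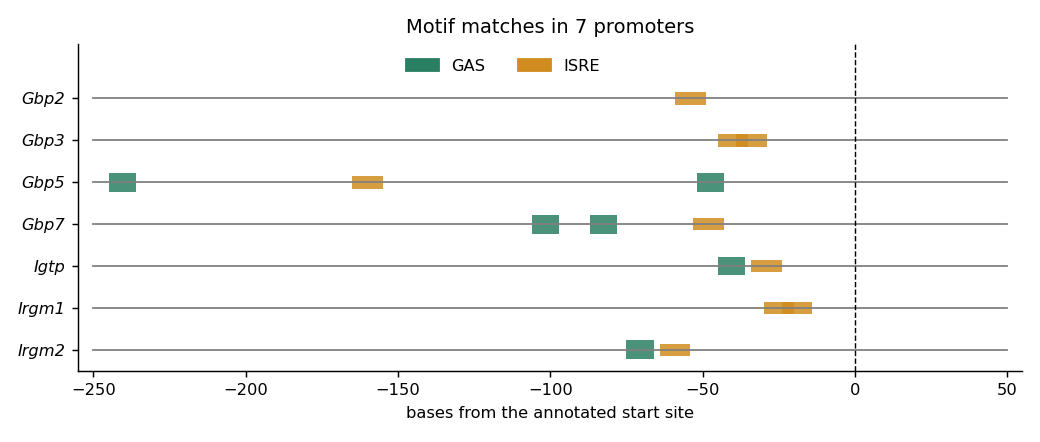
Positions of GAS (green) and ISRE (orange) matches in the promoters of 7 members, in bases from the annotated start site, with each grey line running from 250 bases before to 50 bases after it. Every gene has at least 1 orange block, those of Gbp3 and of Irgm1 overlap each other, and a green block stands in Gbp5, Gbp7, Igtp and Irgm2.

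In blood endothelial cells all 10 members were higher in PyMT-M than in PyMT-N. Their summed level was 1126 CPM (interval 1090.2 to 1163) in PyMT-M and 439.7 CPM (429 to 450.5) in PyMT-N, and its log2 ratio was 1.36 (1.30 to 1.41). CPM here are UMIs of the gene per 1000000 UMIs of the class, and since 3′ tags count molecules, levels of different genes can be set side by side without a length correction. Of the 10 members 9 were at least 2-fold higher in PyMT-M, where 2.55% of the 8544 genes with at least 200 UMIs were so, and none was 2-fold higher in PyMT-N, where 4.18% were. The members' median log2 ratio was 1.33, against -0.0066 for all ranked genes.

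Markers of other cell types also differed between the libraries within this class. The 6 macrophage markers stood at 23.4 CPM in sum in PyMT-M and 255 CPM in PyMT-N, and the 4 B cell markers at 12.7 and 125 CPM. The 6 T and NK cell markers stood at 3.94 and 46.4 CPM in sum and the 5 pericyte markers at 114 and 265 CPM. The sum of the 5 fibroblast markers was the higher in PyMT-M, at 32.1 and 4.29 CPM. It rested on Col1a1 (11.5 and 1.48 CPM) and Col1a2 (19.4 and 1.27 CPM). Dcn (0.607 and 0.805 CPM) and Pdgfra (0.607 and 0.738 CPM) were the lower in PyMT-M, on 2 UMIs each there. Lum had no UMI in either library. With cells that met a further gate left out, 580 and 1007 cells remained, in which macrophage markers stood at 4.62 and 3.65 CPM, B cell markers at 4.31 and 0.731 CPM, and T and NK cell markers at 0 UMIs in PyMT-M (interval up to 1.14 CPM) and 1.53 CPM in PyMT-N. The members' log2 ratio in these cells was 1.32. Pericyte markers still stood at 98.0 and 283 CPM there and fibroblast markers at 24.3 and 3.80 CPM, and their part in the ratio was not tested. Of the 5 pericyte markers in the whole class only Abcc9 (27.0 and 142 CPM) and Kcnj8 (9.40 and 117 CPM), both parts of a potassium channel, were the higher in PyMT-N. The others, Rgs5 (64.6 and 2.88 CPM), Pdgfrb (8.49 and 3.02 CPM) and Cspg4 (4.55 and 0.604 CPM), were the higher in PyMT-M.

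Iigp1 (ENSMUSG00000054072), the vacuole-loading effector, was the most abundant member in the endothelium of both models. It stood at 337 CPM (318 to 358) in PyMT-M and 109.7 CPM (104 to 115) in PyMT-N, 3.07-fold apart. A UMI of it was seen in 58.3% of PyMT-M and 34.2% of PyMT-N cells, and at 2000 UMIs the shares were 37.9% and 13.3%. Of all UMIs of the members, 29.9% were its own in the PyMT-M endothelium and 25.0% in that of PyMT-N.

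The 3 regulatory members on host membranes spanned a range of ratios. Irgm1 (ENSMUSG00000046879), known for its part in autophagy and in restraining the effectors, had 83.4 CPM in PyMT-M and 43.6 CPM in PyMT-N. Its log2 ratio of 0.94 (0.73 to 1.14) was the lowest of the 10 and the single one under 2-fold. Irgm2 (ENSMUSG00000069874) had 40.9 and 18.2 CPM, with a ratio of 1.17 (0.86 to 1.47). Igtp (ENSMUSG00000078853), also called Irgm3, had 73.7 and 26.9 CPM, with a ratio of 1.45 (1.22 to 1.69).

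The guanylate-binding proteins ran from 25.2 to 189 CPM within PyMT-M endothelium and had log2 ratios from 1.05 to 1.68. Gbp7 (ENSMUSG00000040253) led them with 189 CPM in PyMT-M and 81.6 CPM in PyMT-N, with a log2 ratio of 1.21 (1.07 to 1.35). Gbp2 (ENSMUSG00000028270), which is often used as a reporter of interferon gamma exposure, had 123 and 59.3 CPM, just over 2-fold apart, with a log2 ratio of 1.05 (0.87 to 1.22) that ran down to 0.80 over the alternatives. Gbp3 (ENSMUSG00000028268) stood at 120.4 and 39.9 CPM, 3.02-fold apart.

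Gbp4 (ENSMUSG00000079363) had 92.2 CPM in PyMT-M and 35.7 CPM in PyMT-N, with a log2 ratio of 1.37 (1.16 to 1.57). Gbp5 (ENSMUSG00000105504), known as a promoter of NLRP3 inflammasome assembly, had 41.9 and 17.0 CPM (log2 1.30, 0.99 to 1.61). Gbp6 (ENSMUSG00000104713) was the rarest, at 25.2 and 7.85 CPM, and had the highest ratio (log2 1.68, 1.26 to 2.10) with the widest interval of the 10. Its 200 UMIs over both libraries were exactly the minimum for ranking. Within the last 500 bases of its GENCODE M21 transcripts 77.8% of 50-base stretches also occur in Gbp9, Gbp10 or Gm43302, so its counts are uncertain. For Gbp4 the share was 19.4%, and for the other members at most 3.96%.

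The order of levels was alike in both models. Iigp1, Gbp7 and Gbp2 came first in that order and Gbp6 last, and the exceptions were neighbours whose intervals overlapped, or Irgm1, which had rank 6 in PyMT-M and rank 4 in PyMT-N. Among neighbours in the order, the intervals of Gbp2 and Gbp3, of Gbp4 and Irgm1, of Irgm1 and Igtp, and of Gbp5 and Irgm2 overlapped in PyMT-M, and those of Irgm1 and Gbp3, of Gbp3 and Gbp4, and of Irgm2 and Gbp5 in PyMT-N.

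Shares of cells followed depth as well as level. Without thinning a UMI of Irgm1 was seen in 33.2% of PyMT-M and 37.0% of PyMT-N blood endothelial cells, and of Irgm2 in 18.2% and 18.8%, the deeper library being the higher. At 2000 UMIs the shares were 15.2% and 8.30% for Irgm1 and 7.97% and 3.76% for Irgm2. Each of the 10 members was then seen in a larger share of PyMT-M than of PyMT-N cells. The thinned shares ran from 5.05% for Gbp6 to 37.9% for Iigp1 in PyMT-M, and from 1.67% to 13.3% for the same genes in PyMT-N.

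**Figure D2:**
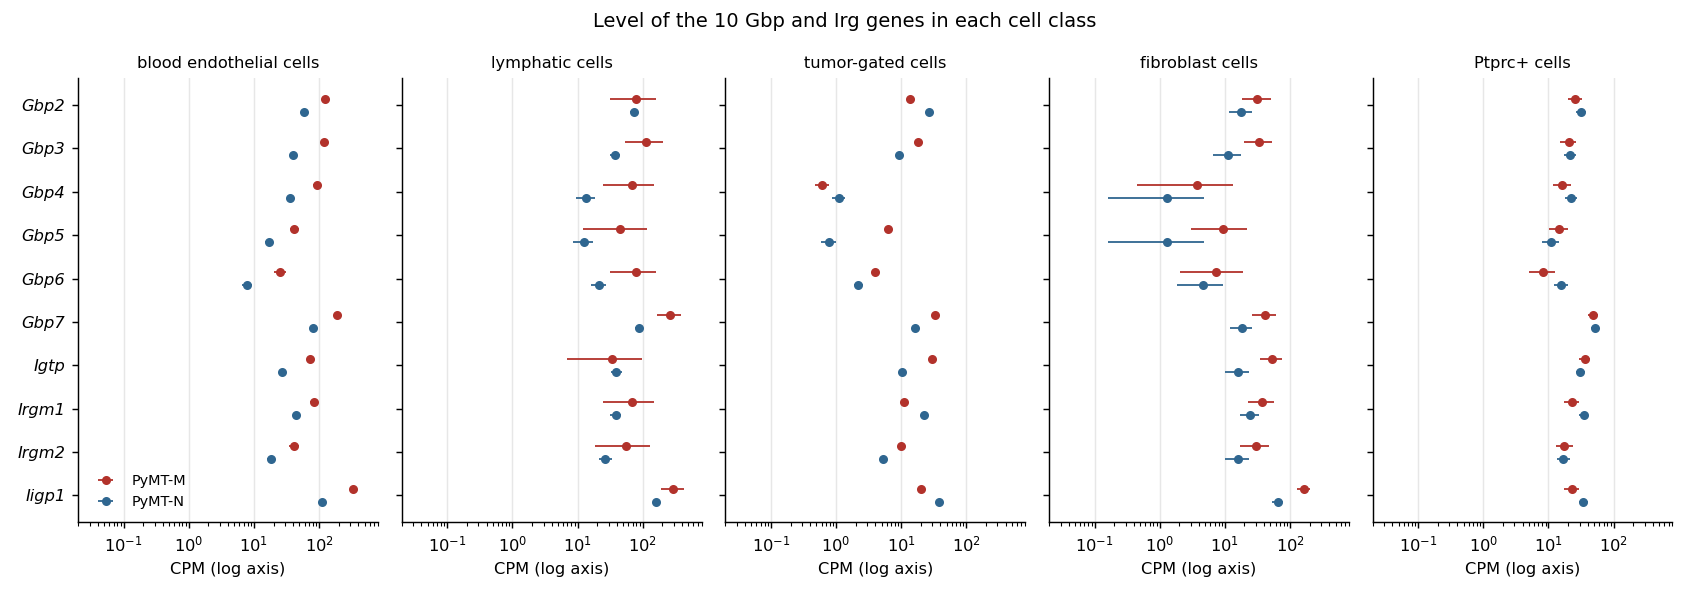
Level of each member in CPM (log axis) in the 5 cell classes, with PyMT-M in red, PyMT-N in blue and bars for the exact 95% counting interval. In blood endothelial cells every red point lies to the right of its blue partner, whereas in tumor-gated cells Gbp2, Gbp4, Irgm1 and Iigp1 lie the other way round.

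The members were higher in blood endothelial than in tumor-gated cells of either library. In PyMT-M all 10 were at least 2-fold higher in blood endothelial than in tumor-gated cells, where 19.2% of ranked genes were, and in PyMT-N 9 of 10 were, against 17.4% of genes. The summed level was 7.68-fold higher in the endothelium of PyMT-M and 3.32-fold higher in that of PyMT-N. Gbp4 was the most restricted, with 92.2 against 0.612 CPM in PyMT-M and 35.7 against 1.10 CPM in PyMT-N. Igtp was among the least restricted in both libraries, at 2.47-fold and 2.60-fold, and Irgm1 differed by 1.93-fold in PyMT-N and 7.52-fold in PyMT-M.

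Free RNA was gauged roughly by 8 endothelial markers in the tumor-gated cells. Their level there was 0.0271% to 4.98% of the endothelial level in PyMT-M and 0.0882% to 6.32% in PyMT-N, Ecscr being the highest in both. The members stood at 0.664% to 40.5% and 3.07% to 51.8%. The markers' medians were 0.189% and 0.209%. The lowest members were Gbp4, at 0.664% and 3.07%, Gbp5 in PyMT-N (4.52%) and Iigp1 in PyMT-M (5.96%), all above the markers' medians and all but the last under the level of Ecscr. The gauge is limited, since the tumor gate leaves out cells with a Pecam1 or Flt1 UMI. In addition Ecscr was seen in 42.2% and 45.7% of tumor-gated cells and Egfl7 in 51.3% and 10.5%. The other markers were seen in at most 6.20% and 3.78%. Whether Ecscr and Egfl7 there were free RNA, and the part of free RNA in the members' levels, was not tested.

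In tumor-gated cells the 10 members differed in direction. The sum was 146.7 CPM (145 to 149) in PyMT-M and 132 CPM (129.8 to 135) in PyMT-N, with a log2 ratio of 0.15 (0.11 to 0.18). Of the 9 members with at least 200 UMIs, 3 were 2-fold higher in PyMT-M, where 19.7% of genes were, and 1 in PyMT-N, where 22.3% were. These shares of genes are large, so a member past 2-fold is not unusual in this class. The direction of each of the 10 was the same under the 9 alternatives run, but with mitochondrial, ribosomal-protein and hemoglobin genes left out of the total 6 members were 2-fold higher in PyMT-M and 0 in PyMT-N. That total raised the ratio of every gene alike, taking the median of all genes from -0.039 to 0.16, and 23.8% of genes were then 2-fold higher in PyMT-M and 18.9% in PyMT-N.

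Gbp5 differed most, at 6.29 CPM (5.85 to 6.75) in PyMT-M against 0.768 CPM (0.583 to 0.992) in PyMT-N. Igtp had 29.8 and 10.3 CPM (log2 1.53) and Gbp7 33.5 and 16.1 CPM (log2 1.06). Gbp3 (log2 0.97), Irgm2 (0.90) and Gbp6 (0.83) were also higher in PyMT-M but short of 2-fold.

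The other 4 members were lower in PyMT-M. Irgm1 stood at 11.1 CPM (10.5 to 11.7) in PyMT-M and 22.6 CPM (21.5 to 23.7) in PyMT-N, the reverse of its endothelial order. Gbp2 had 13.4 and 26.7 CPM (log2 -0.99), Iigp1 20.1 and 38.1 CPM (log2 -0.92) and Gbp4 0.612 and 1.10 CPM (log2 -0.84). So Iigp1 was the leading member in PyMT-N tumor-gated cells, with 28.8% of member UMIs, and Gbp7 in those of PyMT-M, with 22.8%.

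**Figure D3:**
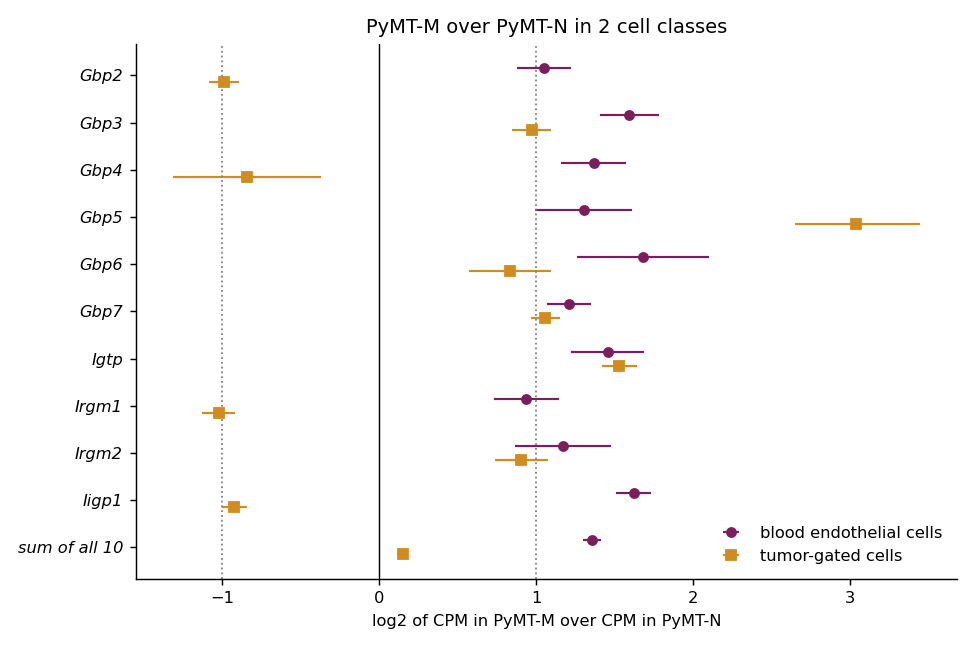
Log2 ratio of CPM in PyMT-M over PyMT-N for each member and their sum in blood endothelial cells (circles) and tumor-gated cells (squares), with exact 95% counting intervals and dotted lines at 2-fold. All circles lie between 0.94 and 1.68, while the squares run from -1.02 for Irgm1 to 3.03 for Gbp5.

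Most members lie in runs of related genes, and in tumor-gated cells neighbours shared a direction in part. Irgm1 begins a stretch of chromosome 11 with Gm5431, Gm12185, 9930111J21Rik1, Tgtp1, 9930111J21Rik2 and Tgtp2, which also holds Psme2b. The stretch was taken only as far as Tgtp2, and the next gene, Ifi47, was left out of it. What follows therefore holds for the 7 listed genes and not for every related gene there. In tumor-gated cells these 7 genes all stood lower in PyMT-M, at 13.8 CPM in sum against 57.7 CPM. The largest parts of the PyMT-N sum were 9930111J21Rik2 (0.703 CPM in PyMT-M, 24.8 CPM in PyMT-N) and Irgm1 (11.1 and 22.6 CPM). Gm5431, at 0.108 and 0.146 CPM, rested on 13 and 11 UMIs. The share of all genes lower in PyMT-M was not counted, but 22.3% were 2-fold higher in PyMT-N. In blood endothelial cells the same 7 genes were all higher in PyMT-M, at 229 CPM in sum against 111 CPM. Tgtp1 and Tgtp2, and the paired Rik genes, are near copies whose reads may be split, and Gm5431, 9930111J21Rik1 and Tgtp1 had fewer than 100 UMIs per library in either class.

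Igtp and Irgm2 lie together elsewhere on chromosome 11 and were higher in PyMT-M in both classes, with summed log2 ratios of 1.35 and 1.35. The run of Gbp5, Gbp7, Gbp3, Gbp2b and Gbp2 on chromosome 3 held both directions in tumor-gated cells, with Gbp2 at its end opposed to the other 3 that had UMIs. In the run of Gbp8, Gbp9, Gbp4, Gbp10 and Gbp6 on chromosome 5, Gbp6 was higher in PyMT-M and the other 4 lower in these cells. The run came to 8.92 against 10.0 CPM in sum. Gbp10 rested on 6 and 5 UMIs, too few for a direction. Gbp6 shares most of its 3′ stretches with genes that include Gbp9 and Gbp10, so its contrast with them is uncertain. In blood endothelial cells every gene of both Gbp runs with UMIs in both libraries was higher in PyMT-M, although Gbp10 rested on 1 and 2 UMIs.

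Of the 24 further interferon-inducible GTPases listed, 19 were analysed and 8 could be ranked in blood endothelial cells. 5 of the 8 were 2-fold higher in PyMT-M and none in PyMT-N, against 2.55% and 4.18% of all ranked genes. Gm4951, another immunity-related GTPase, had 102 and 32.8 CPM (log2 1.64) and Gvin2, a very large inducible GTPase, had 34.3 and 12.0 CPM (log2 1.51). Gbp8 (49.7 and 29.3 CPM) and Gbp9 (47.9 and 30.1 CPM) differed by less, with log2 ratios of 0.76 and 0.67. Mx2, an antiviral dynamin-like GTPase, had 28.2 and 13.2 CPM.

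Outside these 2 classes the members were counted more sparsely. In lymphatic cells their sum was 1089.8 CPM (884 to 1329.5, from 97 UMIs of 20 cells) in PyMT-M and 510.3 CPM (484 to 537) in PyMT-N, with a log2 ratio of 1.09 (0.78 to 1.39). This ratio was 0.50 with only cells whose detected genes lay within 2-fold of the library median. Of the members 9 of 10 were higher in PyMT-M, but the intervals of Gbp2, Gbp5, Irgm1 and Irgm2 spanned 0. Igtp was the lower, and its interval spanned 0 too. The share of all genes higher in PyMT-M was not counted. Of the 3 members that could be ranked 1, Gbp7 (258 and 86.8 CPM), was 2-fold higher in PyMT-M, against 4.71% of genes, and none in PyMT-N, against 14.2%. Iigp1 led here too, at 292 and 160.5 CPM.

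In fibroblasts the sum was 408 CPM (355 to 465) in PyMT-M and 174 CPM (154 to 197) in PyMT-N, with a log2 ratio of 1.22 (0.96 to 1.49). This ratio reached 2.28 with gate thresholds doubled and 1.91 without the highest doublet scores. All 10 members were higher in PyMT-M, Gbp4 on 2 UMIs in each library, but the intervals of Gbp2, Gbp4, Gbp6, Irgm1 and Irgm2 spanned 0. The share of all genes higher in PyMT-M was not counted. No member reached the 200 UMIs needed for ranking, where 4.32% of genes were 2-fold higher in PyMT-M and 11.7% in PyMT-N. Iigp1 again led, at 162 and 64.7 CPM.

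The Ptprc+ cells did not share the pattern. Their sum was 232 CPM (214 to 252) in PyMT-M and 270.5 CPM (255 to 286) in PyMT-N. The log2 ratio was -0.22 (-0.36 to -0.08), and its sign changed under 4 alternatives. It reached 0.26 as the mean of per-cell CPM over cells with at least 2000 UMIs. Of the PyMT-M cells 211 of 488 had that depth, and of the PyMT-N cells 348 of 357. Of 5 ranked members none was 2-fold apart, where 7.28% and 10.3% of genes were 2-fold higher in PyMT-M and PyMT-N. Both the depth and the make-up of this class differed between libraries, and their part in the ratio was not tested.

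Split by markers, T and NK cells held 355 CPM of the members in PyMT-M (57 cells) and 584 CPM in PyMT-N (50 cells), and B cells held 144 and 132 CPM (187 and 99 cells). Macrophages held 464 CPM (370 to 575) in PyMT-M and 152 CPM (80.8 to 260) in PyMT-N, from 63 cells and 10 cells. In PyMT-N 79 Ptprc+ cells met another class and 111 had markers of 2 or more leukocyte types, and these cells held 488 and 420 of the 1196 member UMIs. In PyMT-M 47 and 67 cells did, with 182 and 169 of 595 UMIs. T and NK cells of PyMT-N were above its blood endothelium as a whole, and macrophages of PyMT-M were below that of their own library.

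Within the blood endothelium the members stood at a higher level in cells that also held chemokine transcripts. Cxcl9 and Cxcl10 code for chemokines that draw T cells and are themselves interferon targets. Cells with at least 3 UMIs of the pair were 18.5% (15.5 to 21.9) of blood endothelial cells in PyMT-M, 109 of them, and 9.01% (7.36 to 10.9) in PyMT-N, 96 of them. The PyMT-M share was the higher although PyMT-N cells were the deeper. Of the member UMIs of blood endothelial cells these cells held 1428 of 3713 in PyMT-M and 2391 of 6556 in PyMT-N. Most member UMIs therefore lay outside them.

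In these chemokine cells the members stood at 1934 CPM (1835 to 2037) in PyMT-M and 1721 CPM (1653 to 1791) in PyMT-N. The log2 ratio between models was only 0.17 (0.07 to 0.26). In the remaining blood endothelial cells the sums were 893 CPM and 308 CPM, a log2 ratio of 1.54 (1.46 to 1.61). All 9 members that could be ranked there were 2-fold higher in PyMT-M, as were 2.69% of the 8210 ranked genes, and none in PyMT-N, as were 4.3%. The split itself uses transcripts that differed between the models, at 574 CPM for the pair in PyMT-M and 163 CPM in PyMT-N, in cells of unequal depth.

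Iigp1 had 596 CPM in the chemokine cells of PyMT-M and 521 CPM in those of PyMT-N, against 263 and 67.5 CPM in the other cells. Within the chemokine cells 7 of 10 members were higher in PyMT-M, 4 of them with intervals above 0. The share of all genes higher in PyMT-M in these cells was not counted. Gbp2 had 265 CPM in PyMT-M and 296 CPM in PyMT-N chemokine cells, and the ratios of Gbp2 (log2 -0.16), Gbp5 (-0.11) and Irgm1 (-0.0065) lay below 0 with intervals that spanned it. Each of the 10 members was higher in chemokine cells than in the others in both libraries, with log2 differences of 0.70 to 1.97 in PyMT-M and 1.61 to 3.27 in PyMT-N. The share of all genes higher in chemokine cells was not counted, and the cells were picked by 2 interferon targets.

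Within each library, vessel type made a smaller difference to the summed members than the chemokine split did. Venous cells (Ackr1, Selp and Sele) held 1241 CPM of the members in PyMT-M and 845 CPM in PyMT-N, the nearest of the vessel types, and Iigp1 alone 474 and 395 CPM. The cells that were not venous held 1114 and 411 CPM of the members, a log2 difference of 0.15 in PyMT-M and 1.04 in PyMT-N. Irgm2 was lower in the venous cells of PyMT-M than in those of PyMT-N, at 13.2 CPM (4 UMIs) against 38.2 CPM. Arterial cells (Gja5, Gja4, Hey1, Bmx and Sema3g) held 1413 and 358 CPM, above the other cells in PyMT-M and below them in PyMT-N. Tip cells (Apln, Esm1, Angpt2 and Kcne3) held 1046 and 382 CPM, and capillary cells (Gpihbp1, Car4, Cd36 and Fabp4), most of the class, 1116 and 437 CPM. Between models the log2 ratio of the sum did vary with vessel type, from 0.56 in venous to 1.98 in arterial cells.

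Cycling cells (Mki67 and Top2a) had the lowest sums, 757 CPM against 1208 CPM in the other cells in PyMT-M and 276 against 463 CPM in PyMT-N. All 10 members were lower in cycling than in other endothelial cells in both libraries, with intervals below 0 for 5 in PyMT-M and 8 in PyMT-N. The share of all genes that were lower was not counted. Cycling cells were deeper, with medians of 8483 against 4682 UMIs in PyMT-M and 18253 against 12178 UMIs in PyMT-N. A cell could belong to several of these sets.

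**Figure D4:**
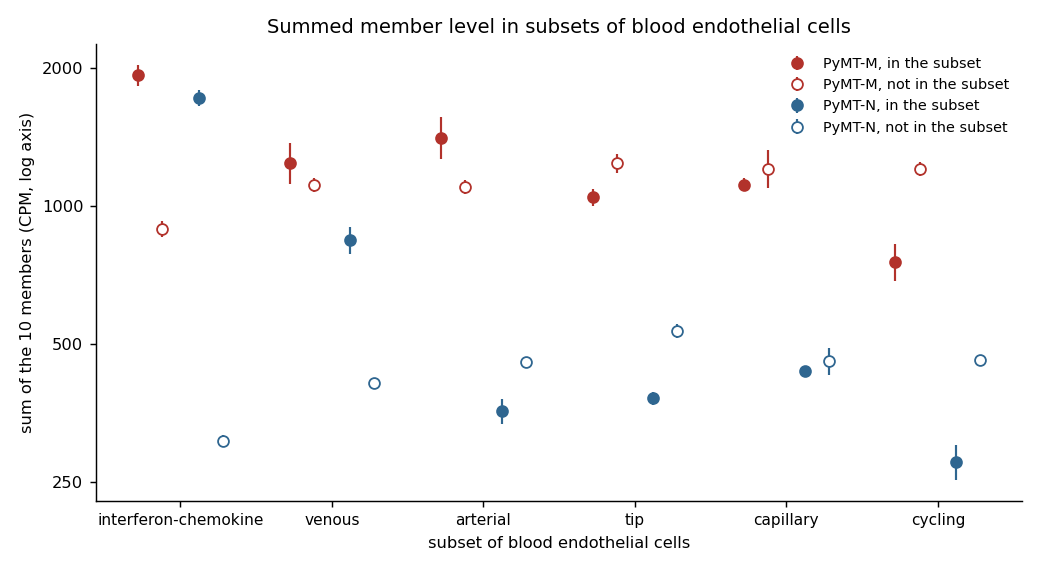
Summed level of the 10 members (CPM, log axis) in blood endothelial cells that hold at least 3 UMIs of a marker set (filled) and in the other cells (open), for PyMT-M (red) and PyMT-N (blue), with exact 95% counting intervals. The filled points of the 2 models nearly meet in the interferon-chemokine set, at 1934 and 1721 CPM, and are farthest apart in the arterial set, at 1413 and 358 CPM.

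Members were also counted cell by cell. With 550 PyMT-M and 1064 PyMT-N cells thinned to 2000 UMIs, 76.7% and 43.0% held at least 1 member, and without thinning 92.0% and 85.7%, so the size of this gap depends on depth. At least 3 members were seen in 25.6% and 6.39% of cells, and at least 5 in 5.82% and 1.97%. In the tumor-gated cells at the same depth at least 1 member was seen in 22.1% and 17.7%.

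The tenth of cells richest in members held 37.8% of all member UMIs in PyMT-M endothelium and 56.4% in PyMT-N. Detection of one member went with more UMIs of the others, and the same comparison was not made for other genes. Cells with Iigp1 held 2.47 UMIs of the other 9 members on average in PyMT-M, against 1.23 in cells without it, and 2.22 against 0.516 in PyMT-N. Across the 10 members this ratio was 1.54 to 2.64 in PyMT-M and 2.78 to 5.11 in PyMT-N, lowest for Irgm1 in PyMT-M and Gbp7 in PyMT-N, and highest for Gbp6 and Gbp5.

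**Figure D5:**
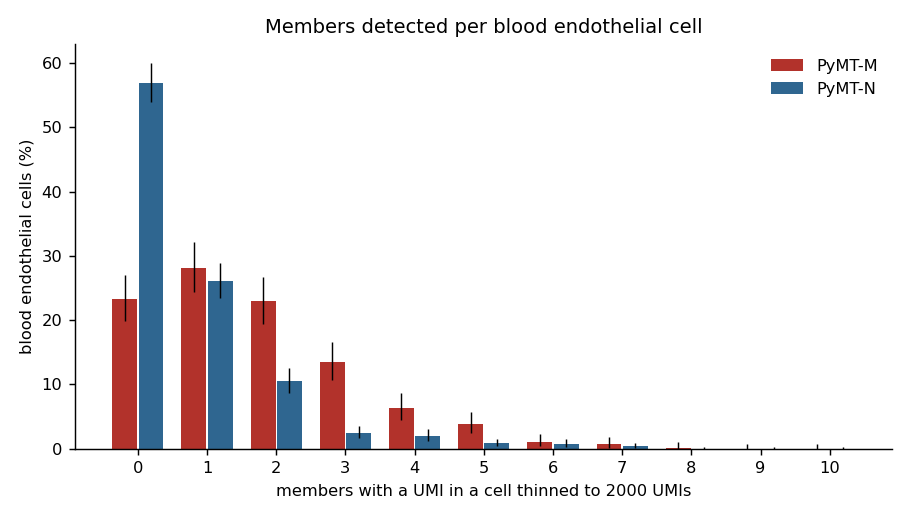
Share of blood endothelial cells (%) by the number of the 10 members seen in a cell thinned to 2000 UMIs, for PyMT-M (red, 550 cells) and PyMT-N (blue, 1064 cells), with exact 95% intervals. Cells with none are 23.3% of PyMT-M and 57.0% of PyMT-N cells, and the red bars exceed the blue ones from 1 to 8 members.

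The signaling chain upstream was examined by lists. Interferon transcripts themselves were scarce in these libraries, which had been depleted of CD45 cells, so their level in the whole tumors is not known. Ifng, the interferon gamma gene, had 12 UMIs in 5 of the kept PyMT-M cells and 13 UMIs in 9 of the PyMT-N cells, of which 4 and 9 cells were Ptprc+. In blood endothelial cells 1 cell of each library had an Ifng UMI. Ifnb1, the interferon beta gene, had 94 UMIs in 27 cells of PyMT-M, 23 of them tumor-gated, and 5 UMIs in 1 cell of PyMT-N.

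Receptor transcripts in the blood endothelium were near equal. Ifngr1 stood at 102 CPM in PyMT-M and 116 CPM in PyMT-N and Ifngr2 at 91.3 and 90.3 CPM. None of 5 ranked receptor genes was 2-fold apart, with a log2 ratio of their sum of -0.07. Of all ranked genes in this class 2.55% were 2-fold higher in PyMT-M and 4.18% in PyMT-N. In tumor-gated cells all 5 were at least 2-fold higher in PyMT-N, Ifngr2 at 71.2 against 15.3 CPM, in a class where 22.3% of genes were.

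Of the signaling genes downstream of the receptors, Stat2, which acts in the type I route, had 103 and 51.5 CPM in blood endothelial cells (log2 1.01) and Jak1, a receptor-bound kinase, 278 and 312 CPM. Of 6 ranked interferon regulatory factors 1 was at least 2-fold higher in PyMT-M, Irf7 with 396 and 104 CPM, whereas Irf1, an early interferon target, had 68.2 and 56.9 CPM. Of 5 ranked inhibitors 1 was, Usp18, which blocks the type I receptor, with 98.0 and 30.2 CPM.

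Other interferon targets were also higher in PyMT-M endothelium, to differing degrees. Of 18 ranked type I targets 17 were 2-fold higher in PyMT-M, against 2.55% of all ranked genes, led by Ifi27l2a (307 and 65.9 CPM), Isg15 (675 and 166.5 CPM) and Ifit3 (252 and 63.6 CPM). Of 18 ranked further interferon gamma targets 8 were, among them Cxcl10 (249 and 63.9 CPM), Cxcl9 (325 and 99.0 CPM) and H2-K1 (2449 and 1102 CPM). 1 was lower, Ciita, the master regulator of MHC class II, at 0.910 CPM (3 UMIs) against 14.1 CPM (210 UMIs). Ptprc, the leukocyte gate gene, was also lower there, at 10.3 CPM in PyMT-M and 84.0 CPM in PyMT-N blood endothelial cells, and its part in the Ciita value was not tested.

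Partners of the GTPases in their known functions did not pass 2-fold in blood endothelial cells, where few genes did. Of all ranked genes 2.55% were 2-fold higher in PyMT-M there and 4.18% in PyMT-N, so none past 2-fold is not unusual. None of the 10 ATG8 and ATG8 conjugation genes was 2-fold apart in blood endothelial cells, with Atg3, which conjugates ATG8 proteins to lipid, at 52.8 and 52.7 CPM and Gabarapl1, an ATG8 protein, at 47.0 and 58.8 CPM. None of the 4 ranked inflammasome and pyroptosis genes was, among them Casp4, which senses bacterial lipopolysaccharide, at 49.4 and 27.8 CPM, Gsdmd, the pore-forming gasdermin, at 28.2 and 21.2 CPM, and Aim2, a DNA sensor, at 23.4 and 38.2 CPM.

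The genes most like the summed members over the 10 values of class and library were Xaf1 (Pearson r of log2(CPM + 1) 0.956), Znfx1 (0.9501), Phf11d (0.947), Ifih1 (0.945) and Meox2 (0.945), out of 8544 genes. The points share libraries and depth, so r is a description. Among the members themselves Gbp3 was most like the sum, at 0.976, and Igtp least, at 0.718 and rank 715 of 8544. Each member is itself part of the sum, which raises its r, so these values cannot be set against those of other genes. Xaf1 stood at 199 CPM in PyMT-M and 88.3 CPM in PyMT-N blood endothelium, and Meox2, a homeobox gene, at 159 and 39.4 CPM but at 0.212 CPM or less in the tumor-gated cells.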

How the data were processed

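Droplet-based single-cell libraries (10x Genomics 3′ v3.1 chemistry) of 1 PyMT-M and 1 PyMT-N pool were analysed. The authors deposited raw UMI counts, whole numbers per gene and barcode, which the submitters' processing notes credit to Cell Ranger 8.0.0 with build mm39. No source used here gives the annotation. The labels name collagenase I and the study's methods collagenase II and dispase II for dissociation. Library totals were 141067264 and 116150425 UMIs. Groups came from the cell line named in the sample labels.

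Barcodes with at least 200 detected genes and at most 10% mitochondrial UMIs were kept. Counts were summed per class and divided by the class total (CPM), with exact Poisson intervals at 95%, and ratios of PyMT-M over PyMT-N had exact conditional intervals. Shares of cells had Clopper-Pearson intervals. UMIs are molecules, and the intervals cover counting error only, not variation between tumors. Ranking took genes whose UMIs summed to 200 or more, and a gene was called at a 2-fold difference. Where a gene had no UMI in a library, a floor of 3 counts was used. For shares of cells and members per cell, thinning took each cell to 2000 UMIs and left out shallower cells. For log2 ratios the thinned alternative drew no UMIs and was the mean of per-cell CPM over cells with at least 2000 UMIs. Genes were named by rule: all members, other listed GTPases with 50 or more endothelial UMIs, up to 3 highest and 3 lowest genes of each list, Ifng, its receptors and Irf1, and the 5 genes most like the summed members. The members and lists were chosen with earlier results of these data known. 1 further gene of the rule is not reported here. Doublets were not removed. Scrublet marked 0 of 6927 barcodes in PyMT-M, so it did not work there, and 161 of 5814 in PyMT-N. The ratio calculation was checked on simulated counts with known folds. Promoters came from RefSeq GRCm38.p6, whose coordinates are given only with the printed sequences. Alternatives covered filters, scaling, averaging, doublets, gates and depth. Calculations ran in scanpy 1.11.5, pandas 2.3.3, scipy 1.17.1, numpy 2.4.6 and matplotlib 3.10.9 under Python 3.11.15.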

Additional observations from a re-analysis of the deposited data

Results flagged for a closer look

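Of the 10 members 4 were lower in PyMT-M in tumor-gated cells and higher in PyMT-M in blood endothelial cells, with both counting intervals clear of 0. Their log2 ratios of PyMT-M over PyMT-N in tumor-gated cells were -0.99 for Gbp2, -0.84 for Gbp4, -1.02 for Irgm1 and -0.92 for Iigp1, against 1.05, 1.37, 0.94 and 1.62 in blood endothelial cells. Each condition had 1 library, so the difference between the classes was not tested. The share of all genes with such opposite directions was not counted. In tumor-gated cells 22.3% of all ranked genes were 2-fold higher in PyMT-N. The tumor-gated level of Gbp4 came to 0.664% of its endothelial level in PyMT-M and to 3.07% in PyMT-N. For 8 endothelial markers the medians were 0.189% and 0.209%, and the highest, Ecscr, reached 4.98% and 6.32%. Ecscr was seen in 42.2% and 45.7% of tumor-gated cells, and whether it was free RNA there was not tested.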

How the results depend on the processing

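All values are log2 ratios of the summed members, PyMT-M over PyMT-N unless said otherwise. The 10 members stayed higher in PyMT-M in blood endothelial cells under all 10 alternatives, and no member changed direction in tumor-gated cells under its 9. In blood endothelial cells the sum moved from 1.36 to 1.27 with detected genes within 2-fold of the library median, and to 1.54 without cells holding Cxcl9 and Cxcl10, an alternative added after seeing the data. The 9 members past 2-fold were 7 to 9 under the other alternatives, where Gbp6 fell under the UMI minimum in some and Gbp2 under 2-fold in others, and 3 when 1000 UMIs were required, since fewer members were then ranked. In tumor-gated cells the sum moved from 0.15 to 0.19 with ratios shifted to a median of 0 and to 0.35 without mitochondrial, ribosomal-protein and hemoglobin genes in the total. In lymphatic cells it moved from 1.09 to 0.75 with at most 5% mitochondrial UMIs and 0.50 with detected genes within 2-fold. In fibroblasts it moved from 1.22 to 1.54 without cells meeting more than 1 gate and 2.28 with gate thresholds doubled. It was 1.91 without the highest Scrublet scores and 1.57 as the mean of per-cell CPM. Over cells with at least 2000 UMIs that mean gave 1.50. In Ptprc+ cells the sum moved from -0.22 to -0.53 with detected genes within 2-fold. Its sign changed to 0.024 without cells meeting more than 1 gate, 0.051 with gates doubled and 0.013 as the mean of per-cell CPM. Over cells with at least 2000 UMIs that mean gave 0.26. The cause of these shifts was not tested. For blood endothelial over tumor-gated cells, with alternatives added after seeing the data, PyMT-M moved from 2.94 to 2.84 with detected genes within 2-fold and 2.69 with the reduced total, and PyMT-N from 1.73 to 1.78 without cells meeting more than 1 gate and 1.79 with gates doubled. Chemokine cells over the others moved in PyMT-N from 2.48 to 2.57 without cells meeting more than 1 gate. Each condition had 1 library, so no replicate could be left out. The 20 lymphatic and 58 fibroblast cells of PyMT-M limit those classes.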

Other observations

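Tumor-gated cells were also split by the cycling genes Mki67 and Top2a. Cells called cycling by these genes numbered 3241 of 4902 in PyMT-M and 144 of 3306 in PyMT-N. The call rested mainly on Top2a, at 286 CPM in PyMT-M and 33.8 CPM in PyMT-N tumor-gated cells. Mki67 stood at 31.7 and 14.9 CPM, so these numbers are not taken as shares of dividing cells. The summed members stood at 154 CPM in cycling and 128 CPM in other cells of PyMT-M, and at 118 and 133 CPM in PyMT-N, so the order of cycling and other cells differed between the libraries. In the blood endothelium cycling cells were the lower in both.

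Among inflammasome genes, which are partners of the guanylate-binding proteins, none of 4 ranked ones was 2-fold apart in blood endothelial cells. In tumor-gated cells 3 of 4 ranked ones were 2-fold higher in PyMT-M. Aim2 stood there at 92.5 CPM in PyMT-M and 5.55 CPM in PyMT-N, Casp4 at 41.5 and 7.97 CPM, and Gsdmd at 14.4 and 4.71 CPM. Casp1, named after its values were seen, lay the other way, at 44.5 and 85.2 CPM. Of all ranked genes 19.7% were 2-fold higher in PyMT-M in tumor-gated cells, and 2.55% in blood endothelial cells. In blood endothelial cells 4.18% were 2-fold higher in PyMT-N, so none of 4 is not unusual there. Kept cells that met no gate held 183 CPM of the summed members in PyMT-M and 173 CPM in PyMT-N.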
